A study of Homo sapiens with 6 samples.

Results

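The microRNA annotated clusters are the cluster rows that the deposited annotation assigned to miRBase microRNA hairpins in the tables of the background slices G20, G35 and G45 and of both HuR replicates. They were 255 of the 1717084 clusters in these 5 tables, with 69 in G20, 58 in G35, 30 in G45, 4 in HuR replicate 1 and 94 in HuR replicate 2. Rows that shared at least 1 base on the same strand were merged into 153 loci, of 1604477 loci made in this way from all clusters. All libraries came from HEK293 cells, a human embryonic kidney line, given 4-thiouridine (4SU), irradiated at 365 nm and partially digested with RNase T1, which cuts after G. Background libraries were made by FLAG M2 immunoprecipitation from a stable line that expresses FLAG-tagged GFP, which is not an RNA-binding protein, on gel regions near 20, 35 and 45 kDa, and each slice was a single library. HuR libraries came from a stable line with FLAG-tagged HuR (ELAVL1), a protein that binds U-rich and AU-rich stretches of RNA, and the labels number them as replicates 1 and 2. Both transgenes were overexpressed from an inducible promoter, and nothing in the sources used here states that the replicates came from separate cultures. The Total library was rRNA-depleted RNA of a similarly treated lysate with no immunoprecipitation.

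MicroRNAs are cut from hairpin precursors by Drosha and Dicer, and one arm of the hairpin is loaded into an Argonaute protein as the mature microRNA. Bases 2 to 8 of the mature microRNA, the seed, pair with target mRNAs, so microRNAs that share a seed share many predicted targets. In PAR-CLIP, crosslinked 4SU is read as a T>C conversion. Each library table reports read counts per site, with the number of conversion events in those reads.

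The loci largely lay on mature microRNAs. Of the 153 loci, 126 overlapped a hairpin of the GENCODE annotation on the same strand and 85 lay on a mature sequence of RefSeq, meaning that they shared at least 15 of its bases and ran at most 5 bases past either end. These 85 are called the mature class. A further 14 loci overlapped a mature sequence only in part, 29 lay on or near a hairpin whose listed mature sequences they did not touch, and for 25 no RefSeq hairpin was placed. The RefSeq tables used were not complete, so 85 is a lower limit for loci on mature microRNAs: mir-22, mir-93, mir-155 and mir-183 were among the 25, and mir-10b, mir-130a and mir-186 among the 29. The mature class held 46 loci on 5p arms, 36 on 3p arms and 3 on matures named without an arm. The locus began on the first base of the mature microRNA in 63 of 85 cases and within 1 base of it in 75, whereas the last base agreed in 38 and lay within 1 base in 64.

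**Figure D1:**
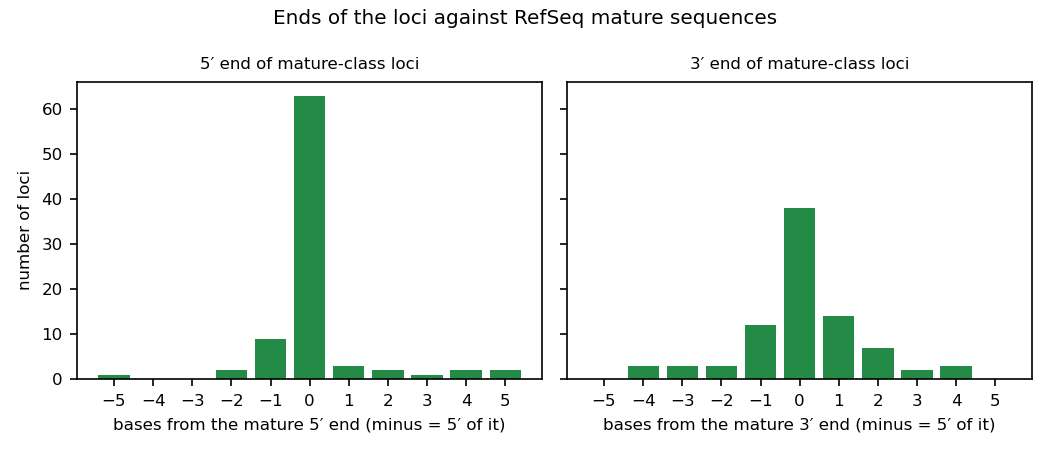
Number of mature-class loci (y axis, 85 loci) by the distance in bases of their 5′ end (left) or 3′ end (right) from the same end of the RefSeq mature sequence (x axis). The 5′ ends pile up at 0, with 63 loci, and the 3′ ends spread more, with 38 loci at 0.

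The sequences of the microRNAs with the highest levels, and of seed relatives among the loci, are given below from RefSeq (GRCh38.p14) with the seed in capitals. The mir-18 pair shared the seed AAGGUGC and differed by the single substitution A20U, counted from the 5′ end of hsa-miR-18a-5p.

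hsa-miR-18a-5p: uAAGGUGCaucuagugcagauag

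hsa-miR-18b-5p: uAAGGUGCaucuagugcaguuag

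A different seed, AAAGUGC, was shared by 3 other members of the mir-17-92 group and its paralogs.

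hsa-miR-17-5p: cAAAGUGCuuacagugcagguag

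hsa-miR-20a-5p: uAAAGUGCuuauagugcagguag

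hsa-miR-106b-5p: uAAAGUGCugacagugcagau

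The largest seed group in the mature class was let-7, with 8 mature names that share GAGGUAG. The member with the most reads and the member with no read in HuR libraries are shown.

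hsa-let-7b-5p: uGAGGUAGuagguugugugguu

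hsa-let-7e-5p: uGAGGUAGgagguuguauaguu

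Within the mature class, the remaining leading microRNAs shown had seeds of their own, apart from hsa-miR-100-5p. It shared its seed with 2 other loci, hsa-miR-99a-5p and hsa-miR-99b-5p. Seeds of loci outside the mature class were not compared.

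hsa-miR-21-5p: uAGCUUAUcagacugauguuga

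hsa-miR-100-5p: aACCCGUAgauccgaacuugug

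hsa-miR-205-5p: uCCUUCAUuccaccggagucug

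hsa-miR-19a-3p: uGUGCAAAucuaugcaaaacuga

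The 83 mature names of the class carried 62 seeds, and 10 of these seeds occurred in more than 1 name. MicroRNAs with a mature sequence encoded by several genes were seen in 12 of 261 RefSeq hairpins (4.60%), against 95 of 1475 hairpins (6.44%) with a mature sequence of a single gene. Reads were mapped by the authors with a limit on the number of genomic matches and used where they mapped uniquely, and how reads shared by several copies, such as those of let-7a and let-7f, were counted could not be told from these tables.

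Depth and composition differed between libraries. The libraries held 6187300 (G35) to 38644636 (G20) reads, and the 10 sites with the most reads took 76.5% of reads in G20 and 61.9% in Total but 2.46% to 21.1% in the others. HuR replicate 1 had the shallowest coverage of the loci, with a median of 0 reads per locus and 24 loci with at least 5 reads, against 75 to 121 loci in the other PAR-CLIP libraries. Its cluster table held no cluster with a single conversion location, whereas 33 of 69, 36 of 58, 17 of 30 and 51 of 94 microRNA clusters of G20, G35, G45 and HuR replicate 2 had a single one. With at least 2 locations, the microRNA clusters numbered 36, 22, 13, 4 and 43 in G20, G35, G45, HuR replicate 1 and HuR replicate 2. A count of 0 reads allowed a level of up to 0.0776 to 0.485 RPM (reads per 1000000 reads of the library) depending on the library, and these limits and the intervals below cover counting error only.

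The microRNA loci took a larger share of the reads in G35 and G45 than in either HuR library. Sites overlapping the loci on the same strand held 20797 reads in G20, 34170 in G35, 32054 in G45, 1368 in HuR replicate 1, 32548 in HuR replicate 2 and 8652 in Total. As a share of the library this was 0.0538% for the G20 slice (95% Wilson interval 0.0531% to 0.0546%). The G35 slice gave 0.552% (0.546% to 0.558%), and the share for G45 was 0.425% (0.421% to 0.430%). It was 0.0144% in HuR replicate 1 (0.0136% to 0.0151%) and 0.101% in HuR replicate 2 (0.100% to 0.102%), with 0.0241% in Total (0.0236% to 0.0246%). G20 lay between both HuR replicates, so the groups overlapped. The means were 0.344% ± 0.259 (SD, n = 3) in background and 0.0579% ± 0.0615 (SD, n = 2) in HuR. An exact permutation test (two-sided) gave p = 0.4, and the smallest p that 2 against 3 libraries allow is 0.2. The test could therefore not reach 0.05 and does not decide whether the groups differ. The loci were also chosen by clusters of these same libraries. The difference of −0.286 percentage points became −0.431 without G20 and −0.182 without G35, and the groups no longer overlapped without G20 or without mir-18a (−0.0893).

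A single locus, mir-18a, held most of these reads. It lies at chr13:92003009-92003033 (hg19, plus strand) in an exon of MIR17HG, the host transcript of the mir-17-92 cluster, whose microRNAs promote proliferation. It had 6168 reads in G20, 22934 in G35, 23832 in G45, 636 in HuR replicate 1, 22074 in HuR replicate 2 and 748 in Total. That was 29.7%, 67.1% and 74.3% of all microRNA locus reads in G20, G35 and G45, 46.5% and 67.8% in HuR replicates 1 and 2, and 8.65% in Total. In RPM the levels were 160, 3707 and 3161 in G20, G35 and G45 and 66.8 and 687 in HuR replicates 1 and 2, so that HuR replicate 2 lay above G20 and the groups overlapped. In Total the level was 20.8 RPM, below every PAR-CLIP library.

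**Figure D2:**
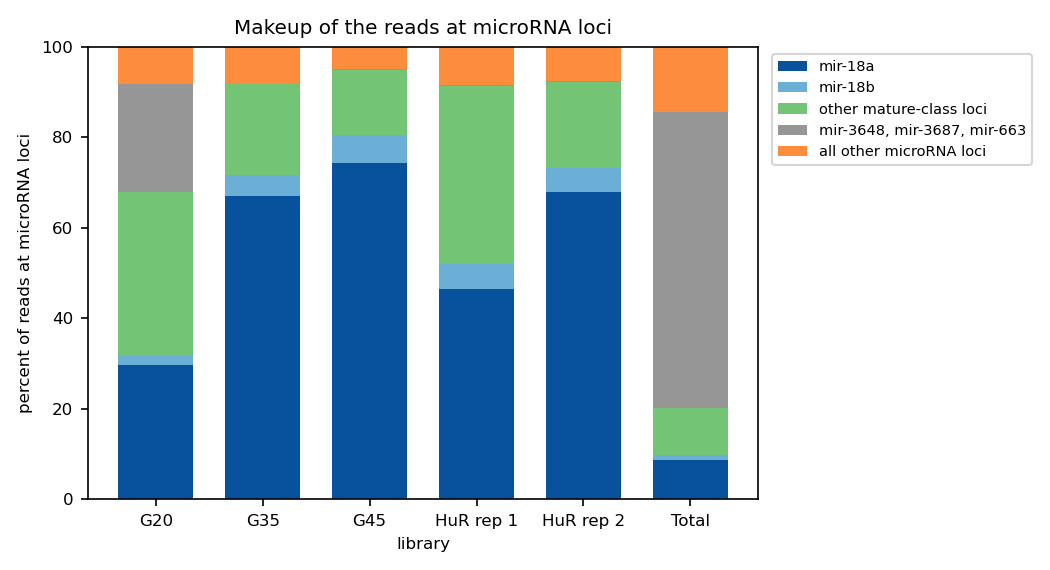
Reads at the microRNA loci split by locus group (y axis, percent of all reads at microRNA loci) in each of the 6 libraries (x axis). The mir-18a locus takes 29.7% to 74.3% in the PAR-CLIP libraries and 8.65% in Total, where the mir-3648, mir-3687 and mir-663 entries fill most of the bar.

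The second locus, mir-18b, lies at chrX:133304114-133304137 (hg19, minus strand) in the mir-106a-363 cluster. It had 419 reads in G20, 1580 in G35, 1970 in G45, 74 in HuR replicate 1, 1763 in HuR replicate 2 and 99 in Total. This was 6.79% to 13.2% of the mir-18a reads of the same library, so both loci moved nearly in step. Conversion set the pair apart. At mir-18a there were 4.39, 3.82, 4.08, 3.62 and 4.54 conversion events per 100 reads in G20, G35, G45 and HuR replicates 1 and 2. At mir-18b there were 53.7, 61.4, 57.1, 64.9 and 49.2, higher than at mir-18a in all 5 PAR-CLIP libraries and also in Total (52.5 against 4.95). The mature sequences carry the same Ts apart from the T encoded at base 20 of mir-18b (A20U), and the tables do not give events by base, so whether that base holds the extra events was not tested.

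Loci of the mir-17-92 group and its paralogs were detected for 11 of 15 genes on the list. Besides the mir-18 pair, mir-17, mir-19a, mir-20a and mir-92a-1 of MIR17HG, mir-25, mir-93 and mir-106b within MCM7, mir-19b-1 in MIR17HG and mir-363 near mir-18b had a locus. The mir-19a locus (chr13:92003192-92003215) had 2188 reads in G20, 373 in G35, 156 in G45, 36 in HuR replicate 1, 156 in HuR replicate 2 and 34 in Total. It was the locus of the group with a level in G20 (56.6 RPM) close to that in G35 (60.3 RPM), while G45 reached 20.7 RPM and both HuR libraries 3.78 and 4.86 RPM. The mir-106b 5p locus had 150, 207 and 43 reads in G20, G35 and G45, 39 and 75 in HuR replicates 1 and 2, and 16 in Total. Without both mir-18 loci, the group summed to 74.3, 172 and 44.3 RPM in background, 14.8 and 13.0 RPM in HuR, and 6.57 RPM in Total, and here the groups did not overlap.

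Next in mean level came mir-22, mir-21 and mir-100, which are expressed in many tissues, and mir-21 is often raised in tumours. The mir-22 locus (chr17:1617208-1617229, an exon of MIR22HG) had 621 reads in G20, 1891 in G35, 1171 in G45, 26 in HuR replicate 1, 1397 in HuR replicate 2 and 12 in Total. The mir-21 locus (chr17:57918634-57918656, an exon of VMP1) had 534, 1034, 637, 87, 1368 and 37 reads in the same order. The mir-100 locus (chr11:122022982-122023004, an intron of MIR100HG) had 312, 652, 1099, 26, 1000 and 3. In RPM each of the 3 was highest in G35 or G45 and lowest in Total, and HuR replicate 2 lay above G20 in each case, so their groups overlapped.

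Of the let-7 family, microRNAs that restrain growth genes such as LIN28B and RAS in many tissues, 11 of 12 genes had a locus. The let-7b locus (chr22:46509571-46509593, an exon of MIRLET7BHG) had most reads of the family, with 198 in G20, 451 in G35, 371 in G45, 47 in HuR replicate 1, 355 in HuR replicate 2 and 8 in Total. The let-7e locus (chr19:52196046-52196066, an intron of SPACA6) had 58, 30 and 10 reads in G20, G35 and G45, 0 in both HuR libraries and 13 in Total. Against the limit that 3 reads per HuR library allow, its mean RPM was at least 12.5-fold lower in HuR than in background. The family summed to 11.8, 105 and 59.9 RPM in background, 5.67 and 16.8 RPM in HuR, and 3.42 RPM in Total.

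**Figure D3:**
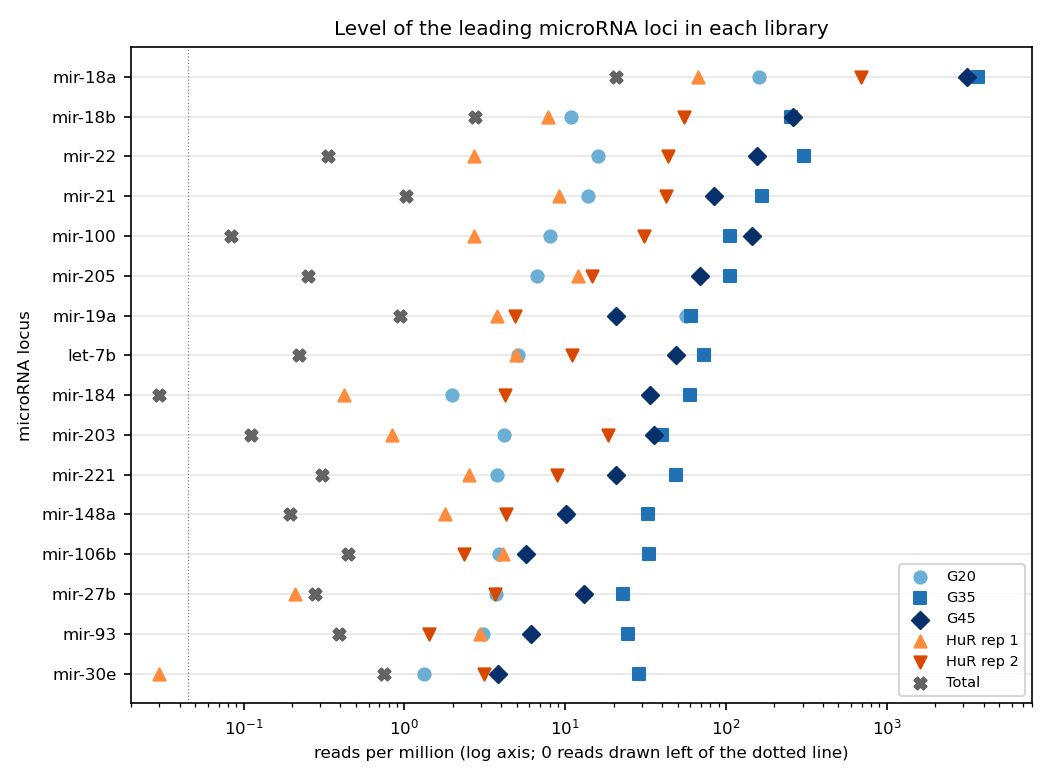
Level in RPM (x axis, log scale) of the 16 microRNA loci with the highest mean over the 5 PAR-CLIP libraries, leaving out the mir-3648 and mir-3687 entries (y axis), with 1 symbol per library. G35 or G45 is highest for every locus shown, and Total is lowest for every one apart from mir-27b and mir-30e, where HuR replicate 1 is lower.

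Several of the loci are microRNAs best known from particular tissues. A list of 25 such genes was drawn up after values were seen, and 15 of them had a locus. Their reads in Total were few, as at some other leading loci (3 at mir-100, 8 at let-7b and 12 at mir-22). The mir-205 locus (chr1:209605511-209605529, MIR205HG intron), an epithelial and skin microRNA, had 259 reads in G20, 656 in G35, 519 in G45, 114 in HuR replicate 1, 472 in HuR replicate 2 and 9 in Total. The mir-203 locus, also known from skin, had 161, 248, 271, 8, 591 and 4 reads in the same order, and mir-184, known from the cornea, had 76, 372, 254, 4, 136 and 0. Among microRNAs of blood cells, mir-223 had 22, 114, 19, 3, 96 and 4 reads, and mir-155 had 20, 69, 132, 1, 50 and 2. The 16 loci of the list summed to 19.1, 296 and 190 RPM in G20, G35 and G45, 15.01 and 53.9 RPM in HuR replicates 1 and 2, and 0.835 RPM in Total. Of these loci 13 to 15 had reads in G20, G35, G45 and HuR replicate 2, 8 in HuR replicate 1 and 9 in Total. No locus was made for the other 10 genes, among them muscle mir-206, brain mir-124-1 and liver mir-122. The source of these reads was not tested.

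Over the 85 mature-class loci, levels in the PAR-CLIP libraries ranked more like each other than like those in Total. Across loci, Spearman's rho was 0.88 between G35 and G45, 0.75 between G35 and HuR replicate 2, and 0.78 between G45 and HuR replicate 2. G20 gave 0.74, 0.69 and 0.62 with G35, G45 and HuR replicate 2, and HuR replicate 1 gave 0.53 to 0.60 with the other PAR-CLIP libraries. It was 0.35, 0.19 and 0.17 between Total and G20, G35 and G45, and 0.42 and 0.23 between Total and HuR replicates 1 and 2. Loci within a library share its depth and its sequence biases and are not independent replicates, so these values are descriptions only.

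Fewer of the sites at mature microRNAs ended in G, the base after which RNase T1 cuts, than of sites in general. Over all sites of a library, 73.7%, 49.2% and 46.0% ended in G in G20, G35 and G45, 85.2% and 93.2% in HuR replicates 1 and 2, and 95.2% in Total. Of the mature-class sites 32.5% (26 of 80), 19.7% (15 of 76) and 20.9% (14 of 67) did so in G20, G35 and G45. In HuR replicates 1 and 2 the shares were 21.3% (10 of 47) and 30.4% (21 of 69), and in Total 61.8% (42 of 68). The share was lower at mature-class sites than over the whole library in 6 of 6 libraries.

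Conversion events per read were fewer at microRNA loci than over each library as a whole. Pooled over the loci, there were 7.78, 7.08 and 7.52 conversion events per 100 reads in G20, G35 and G45 and 9.94 and 9.40 in HuR replicates 1 and 2, against 18.7, 61.7, 56.2, 48.6 and 87.3 over all sites of the same libraries. Total had 10.99 at the loci and 36.9 over all its sites, so the value at the loci was the lower one in 6 of 6 libraries. Counted per T in the microRNA clusters, 1.12% to 2.21% of Ts were converted in the 5 tables, against 4.03% to 13.3% in all clusters. Without the mir-18a cluster the shares were 1.27%, 2.66% and 3.52% in G20, G35 and G45 and 3.29% in HuR replicate 2. In HuR replicate 1 the 3 clusters left had 10.7%, near the 11.4% of all its clusters. The means at the loci were 9.67 ± 0.384 (SD, n = 2) in HuR and 7.46 ± 0.351 (SD, n = 3) in background. The clusters that chose the loci require conversion, and 56 loci had a cluster in HuR tables only, with 811 of the 3059 events of HuR replicate 2, so this difference is given with no test. At the mature class the values overlapped, with 6.04, 7.43 and 7.69 in background and 7.21 and 7.59 in HuR. They overlapped also at loci with a cluster in both kinds of table (5.91, 7.01 and 7.47 against 6.97 and 7.10), and at loci with a cluster in background tables only HuR had the lower values (5.83 to 7.90 against 2.54 and 2.64), both without the mir-3648, mir-3687 and mir-663 entries. The lower HuR values in the background-only set follow partly from its choice, since no HuR cluster was called there. Without mir-18b the groups overlapped, at 6.83, 4.45 and 4.28 in background and 6.80 and 7.12 in HuR, and without mir-18a they did so at 9.20, 13.7 and 17.5 against 15.4 and 19.6. With each locus of at least 5 reads weighted equally, HuR replicate 2 stood apart at 49.5, while HuR replicate 1 had 16.8 and background 10.1, 16.7 and 11.6.

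Individual loci ranged widely around these values. Among the 56 loci with at least 20 reads in HuR replicate 2, the median was 5 events per 100 reads and 47 lay below the library value. In G35, all 54 loci with that many reads lay below the library value, with a median of 1.89 and 16 loci without a conversion event. Several leading loci had few events: mir-21 had 18 events in 1034 reads of G35 and 11 in 1368 reads of HuR replicate 2, and mir-22 had 18 in 1891 and 6 in 1397. The mir-19a locus had more, with 38 events in 373 reads of G35 and 69 in 156 reads of HuR replicate 2. The mir-184 locus also had many, with 216 events in 372 reads of G35 and 63 in 136 reads of HuR replicate 2.

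**Figure D4:**
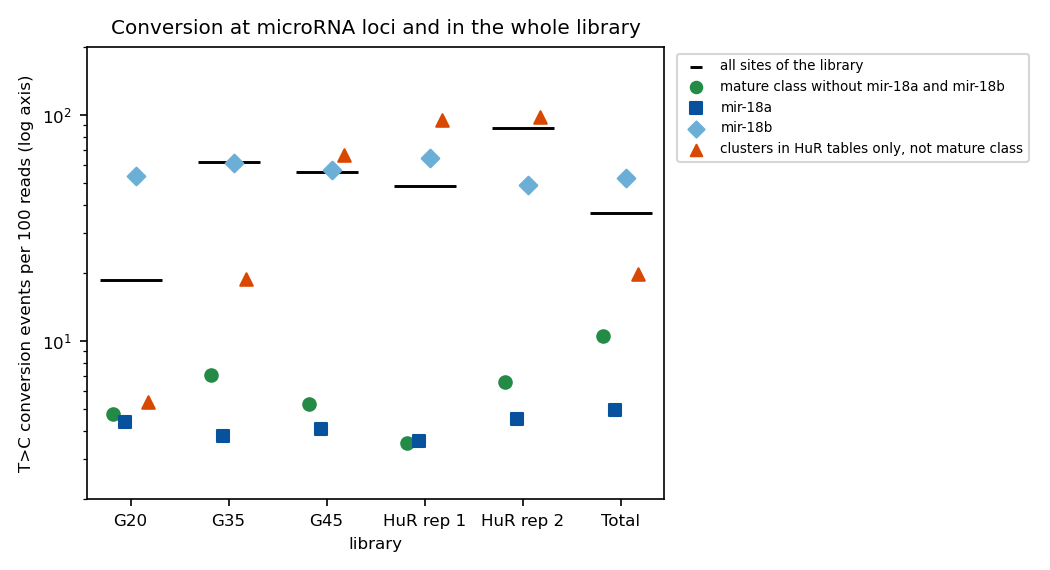
T>C conversion events per 100 reads (y axis, log scale) in each library (x axis) over all its sites (black bars) and at groups of microRNA loci (symbols). Mature-class loci other than the mir-18 pair lie between 3.53 and 10.5, far below the bar of each library, while mir-18b lies between 49.2 and 64.9.

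The loci with a cluster in HuR tables only differed from the other microRNA loci. By the tables that held a cluster, 59 loci had one in background tables only, 38 in both kinds and 56 in HuR tables only (36.6%). Of all 1604477 loci, 85360 were in background tables only, 40653 in both and 1478464 in HuR tables only (92.1%). This split was made after values were seen and uses the cluster calls, which themselves require conversion, so what follows is a description with no test. The mature class made up 40 of 59 and 30 of 38 loci of the first 2 sets and 15 of 56 of the third. The last base of the locus was G in 28.8% (17 of 59), 39.5% (15 of 38) and 83.9% (47 of 56). Over all sites of HuR replicate 2, 93.2% ended in G. Of the 56 loci, 54 had their cluster in HuR replicate 2 alone. Of the 56 loci, 31 lay in introns, 17 in exons of other transcripts and 8 outside annotated genes.

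Apart from the 15 in the mature class, these 41 loci had 705 reads in HuR replicate 2 with 97.9 conversion events per 100 reads, and 43 reads in HuR replicate 1 with 95.3. For 7 of the 41, mir-200a and mir-301b among them, no RefSeq hairpin was placed, so the 41 may include loci on matures. HuR replicates 2 and 1 had 87.3 and 48.6 over all their sites, and 98.3 and 58.6 over all their clusters. These 41 loci are compared with the other libraries next. The 41 loci had 56, 16 and 6 reads in G20, G35 and G45, where 26, 38 and 38 of the 41 had no read, and 91 reads in Total with 19.8 events per 100. Of the 16 reads in G35, mir-200a held 9 and mir-301b held 4. Of the 41, 25 had no read in HuR replicate 1. The examples below were chosen after their values were seen, as the loci of at most 30 bases with the most reads in HuR replicate 2. Mir-200a, which may lie on a mature and had 1 event in 28 reads, was left out. The examples are given from the hg19 genome on the strand of the locus, with T, the base that can convert, in capitals.

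mir-3143 locus, chr6:27115425-27115446, plus strand: TTcTTTcgcggTTgggcTggag

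mir-554 locus, chr1:151518326-151518347, plus strand: aTgggTcagggTTcaTaTTTTg

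mir-5047 locus, chr17:62497379-62497403, minus strand: caTaaaaacaacTTTTgggggacag

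mir-3671 locus, chr1:65523457-65523483, minus strand: TaaaTTaTTTTaTTTcTaTcaaaTaag

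The mir-3143 site, outside annotated genes, and the mir-554 site, in an intron of TUFT1, had 72 and 37 reads in HuR replicate 2, no read in any background library or in HuR replicate 1 at the locus shown, and 2 and 0 reads in Total. In HuR replicate 2 the reads came from sites of 67 and 83 bases that each also covered a neighbouring locus. They are therefore not specific to the sequences shown. Each neighbouring locus had 1 read in HuR replicate 1. The mir-5047 locus lies in an exon of DDX5, an RNA helicase gene that also holds mir-3064. It had 3, 0 and 0 reads in G20, G35 and G45, 6 and 32 in HuR replicates 1 and 2, and 4 in Total. The longest of the DDX5 loci, at mir-3064 (chr17:62496928-62496974), had 8, 3 and 0 reads in G20, G35 and G45, 8 and 207 in HuR replicates 1 and 2, and 10 in Total, with 212 events in HuR replicate 2. The DDX5 pair, mir-18a and mir-18b were the 4 microRNA clusters of HuR replicate 1. The mir-3671 locus, in an intron of JAK1, had 26 reads in HuR replicate 2 and none in the other 5 libraries.

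Of 11 microRNA genes linked to HuR in earlier work, let-7 aside, 3 had a locus: mir-21 and both mir-16 genes. Over all RefSeq hairpins 107 of 1736 (6.16%) had one. The mir-16 loci overlapped the hairpins by at least 1 base and did not touch the listed mature sequences. How much of each locus lay inside its hairpin was not measured. The mir-16-2 site (an intron of SMC4) had 17 reads in HuR replicate 2 and none in any other library, and the mir-16-1 site (an intron of DLEU2) had 2 and 7 reads in HuR replicates 1 and 2 and none elsewhere. For mir-15b, the partner of mir-16-2 in SMC4, the mature locus had 29, 34 and 10 reads in G20, G35 and G45, 2 and 23 in HuR replicates 1 and 2, and 1 in Total.

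HuR was then set against background locus by locus, with edgeR's quasi-likelihood test on the reads of all merged loci. Of the 153 microRNA loci 62 passed the filter on low counts, and the 91 others were not tested. Most of those tested had clusters in background tables only (25) or in both kinds (33), and 4 in HuR tables only. A locus could pass on its background reads alone, as let-7e did with 0 reads in both HuR libraries. The direction of the medians and calls at the microRNA loci therefore partly follows from which loci passed. None of the 62 was called at a Benjamini-Hochberg adjusted p under 0.05, against 16.7% of the 30100 loci tested (0.140% lower in HuR). At an unadjusted p under 0.05 there were 5 of the 62, against 10093 of all 30100 loci tested. The median log2 difference, HuR over background, was −1.39 at the microRNA loci and 1.50 over all loci tested, and each of the 62 lay below that median of all loci. Leaving out the scaling factors moved the median of all loci to −0.37 and that of the microRNA loci to −2.77, a distance of −2.39 in place of −2.90. DESeq2 called 7 of the 62 (26.3% of all loci, 1.70% lower in HuR), all lower in HuR. In edgeR, RLE scaling factors gave 2 calls (19.4% of all loci, 0.761% lower) and library totals alone 2 (12.7%, 1.32% lower), also lower in HuR. In edgeR with 1 library left out, the microRNA loci called were again all lower in HuR. They were 11 of 68 tested without G35 (35.8% of all loci called, 2.15% lower in HuR) and 9 of 74 without G45 (38.9%, 1.69% lower). Without HuR replicate 1 they were 4 of 109 (1.77%, 0.166% lower), namely the mir-3648, mir-3687 and mir-663 loci. Without G20 let-7e alone of 50 was called (13.5%, 1.29% lower). Without HuR replicate 2, which leaves 1 HuR library, the median log2 difference was −5.13 at the 80 microRNA loci tested and −1.29 over all loci.

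The lowest adjusted p in edgeR was that of let-7e, 0.063, with the read counts given above. For mir-182 and mir-183, neighbours in a cluster typical of sensory organs, edgeR gave log2 differences of −3.68 ± 1.45 (SE, adjusted p = 0.13) and −4.33 ± 1.62 (adjusted p = 0.11). The mir-182 locus had 87, 74 and 34 reads in G20, G35 and G45, 3 in each HuR replicate and 1 in Total, and mir-183 had 129, 88, 17, 1, 7 and 8. For both, reads and RPM were lower in each HuR library than in any background library. At the other end, mir-203, let-7i and mir-23a had log2 differences above 0, of 0.18 ± 1.30, 0.02 ± 1.16 and 0.06 ± 0.98, and the standard errors left their direction undetermined (mir-23a was chosen after its values were seen). No difference was called at the leading loci either, with −0.66 ± 1.26 for mir-18a, −0.46 ± 1.19 for mir-18b, −0.96 ± 1.34 for mir-22, −0.09 ± 1.12 for mir-21 and −0.45 ± 1.22 for mir-100 (edgeR, adjusted p = 0.65 to 0.96).

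By list, none of 8 tested loci of the mir-17-92 group, 7 of let-7, 17 of the other broadly expressed microRNAs, 1 linked to HuR and 11 known from particular tissues was called. Their median log2 differences were −0.95, −1.08, −1.67, −0.09 and −0.39, beside 1.50 over all loci. DESeq2's calls among them were let-7e, mir-182 and mir-183. Its other 4 were mir-663, mir-629, mir-744 and mir-3609, of which the last 3 were named after their values were seen.

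**Figure D5:**
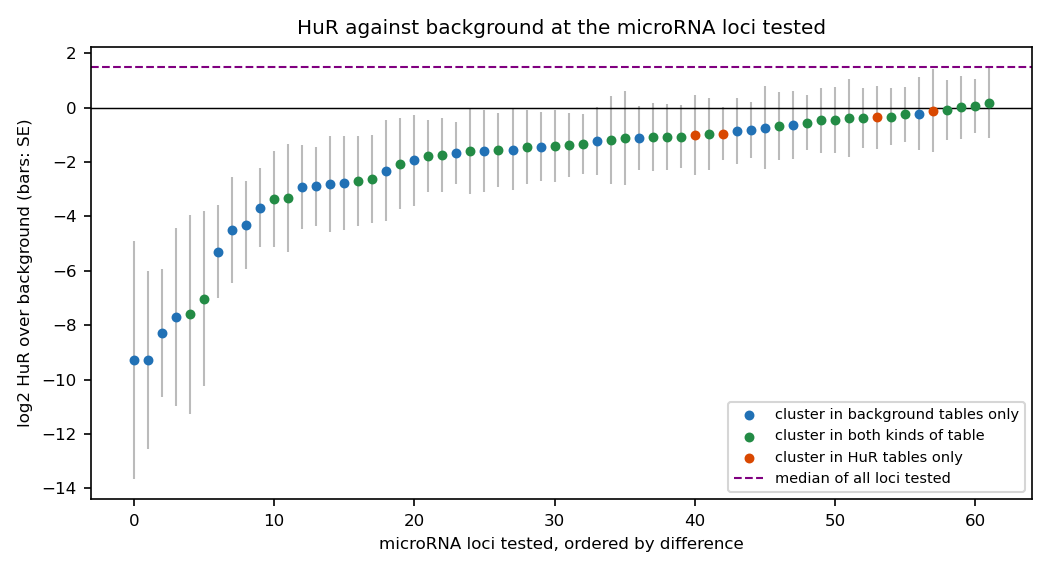
Log2 difference, HuR over background, with its standard error (y axis) for the 62 microRNA loci tested, ordered by size (x axis) and coloured by the tables that held a cluster. All points lie below the dashed line at 1.50, the median of all loci tested, and 59 lie below 0. Loci could pass the count filter on background reads alone.

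Entries that coincide with other noncoding RNAs behaved unlike the rest. Of 20 on the list, 3 had loci: mir-3648 and mir-3687, which lie in a ribosomal DNA repeat sequence, and mir-663. In G20 and in Total the 2 mir-3648 loci (chr21:9825935-9825949 and chr21:9825980-9826009) and the mir-3687 locus (chr21:9826232-9826268) were covered by a single site of 820 bases, with 4784 reads in G20 and 5519 in Total, and its reads are therefore not specific to the hairpins. The other libraries had 0 to 39 reads at each. The mir-663 locus (chr20:26188844-26188892, an exon of MIR663AHG) had 149, 13 and 5 reads in G20, G35 and G45, 0 in both HuR libraries and 147 in Total, so its mean RPM was at least 10.8-fold lower in HuR than in background by the limit of 3 reads. Together these entries made up 127.7 RPM in G20 and 157.7 RPM in Total and 0.420 to 13.4 RPM elsewhere. With all 5 libraries and TMM scaling factors edgeR called none of the 4 loci, with a median log2 difference of −8.44, or −7.32 with mir-663 at its bound. The 2 mir-3648 loci and the mir-3687 locus count the same 4784 reads in G20. That median and the calls of these 3 loci, here and above, are therefore not separate observations. Mir-663 was called with RLE factors (edgeR, adjusted p = 0.048), 1 mir-3648 locus with library totals alone (0.048), all 4 without HuR replicate 1 (1.2e-05 to 0.024) or without G35 (0.024), and 3 of them without G45 (0.0072 to 0.014).

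Of the 153 loci, 48 had at least 1 read in all 5 PAR-CLIP libraries and 43 in all 6 libraries. Reads were present at 121, 98 and 89 loci in G20, G35 and G45, 75 and 131 in HuR replicates 1 and 2, and 112 in Total. Clusters were shared less: 94 loci had a cluster in a single table, 33 in 2, 11 in 3, 13 in 4 and 2 in all 5, the last being the mir-18 pair.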

How the data were processed

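The deposited tables hold raw counts, made by the authors. Reads of 50 bases were mapped to hg19 with Bowtie, allowing up to 2 mismatches and up to 10 locations, and reads under 10 bases were dropped. PARalyzer then grouped overlapping reads into sites (groups) and called clusters within them. Removal of PCR duplicates is not given in the sources used here. The deposited score of the cluster mode was not used.

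Members and gene lists were chosen with earlier results of these data known. Cluster rows annotated miRNA were merged by strand, and reads and conversion events of groups overlapping a locus by at least 1 base were summed, so a site spanning 2 loci counts at both but once in totals. Site sequences checked against GRCh37 (19327 to 20073 per library) all matched. Hairpins came from GENCODE 44 lifted to GRCh37 and mature sequences from RefSeq (128 loci matched a symbol). Loci of all 5 PAR-CLIP tables were fitted together with edgeR 4.0.16 (TMM factors on total reads, filterByExpr, quasi-likelihood test, Benjamini-Hochberg over all loci), with DESeq2 1.42.0 as an alternative, in R 4.3.3. Shares were compared by exact permutation tests in Python. Conversion is described with no test, since cluster calls require it. The 3 slices are different gel regions, so p-values refer only to these libraries, whose differences may be technical. The scripts were tested on simulated data.

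Loci named in the text are the 10 with the highest mean RPM, the 3 with the most reads in each library, up to 8 per direction past the threshold, and members of the lists. Others are said to be chosen after their values were seen. Total has no region annotation of its clusters, so it chose no locus and entered as values only. Alternatives were other scalings, filters, overlaps and strand rules, and leaving out each library.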

Additional observations from a re-analysis of the deposited data

Results flagged for a closer look

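The mir-30b locus (chr8:135812813-135812834, minus strand, hg19) had 902 reads in Total, a library that no test used, and its level there was at least 10 times that of any PAR-CLIP library. The PAR-CLIP libraries had 10, 0 and 4 reads in G20, G35 and G45 and 0 and 10 in HuR replicates 1 and 2. With groups of 3 and 2 libraries, single libraries standing apart from their group could not be tested. The cause was not tested.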

How the results depend on the processing

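The direction of the share and of the conversion difference, HuR minus background, held under the alternatives run, none of which split the loci by cluster calls. In that split, without the mir-3648, mir-3687 and mir-663 entries, conversion was lower in HuR at loci with a cluster in background tables only. The values were 2.54 and 2.64 against 5.83 to 7.90 events per 100 reads. No HuR cluster was called at these loci and cluster calls require conversion, so a low HuR value there follows partly from the split. At the mature class the values overlapped. The share ran from −0.431 to −0.182 percentage points with 1 library left out and the conversion difference from 1.94 to 2.48 events per 100 reads. The share was −0.0893 without mir-18a and −0.426 with the 10 top sites out of the denominator, and in both the groups no longer overlapped. The conversion difference was 2.21, or 20.3 with loci weighted equally (49.5 in HuR replicate 2, 16.8 in HuR replicate 1 and 16.7 in G35), 3.40 in the clusters tables, 2.71 without the mir-3648, mir-3687 and mir-663 entries, 4.06 without mir-18a and 1.77 without mir-18b. In the last 2 the groups overlapped, and the settings without mir-18b and without the 3 entries were chosen after seeing the data. Of 62 microRNA loci tested, 0 were called by edgeR with all libraries (16.7% of all 30100 loci), 2 with RLE factors (19.4% of all loci), 2 with library totals alone (12.7%) and 7 with DESeq2 (26.3%). With at least 5 reads in 2 libraries it was 2 of 104 (17.6% of 105219 loci), and without a filter 0 of 153 and 0 of all loci. Without a filter, 43 of the 153 had an unadjusted p under 0.05, against 667780 of all 1604477 loci. Called microRNA loci were all lower in HuR, and loci could pass the count filter on background reads alone. Leaving out 1 library gave 0 to 11. The count with reads in every PAR-CLIP library was 48, or 21 at 5 reads or more, and 48 to 71 with 1 library left out. Causes were not tested. No paired analysis was possible because background slices carry no replicate numbers in the labels. Of the 153 loci, 91 had too few reads to be tested.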
